A study of Bos taurus with 29 samples.

Results

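Conventionally matured cattle oocytes differed from each other in how much ZP3 messenger RNA they held, and a large set of other transcripts divided the 3 lowest in ZP3 from the rest. The group described here is the 8 oocytes titled Ctrl_IVM that have values, of 22 oocytes with values in the series. The sides were chosen by ZP3 level in CPM: the 8 were ranked, and the 3 lowest were set against the other 5. The split comes from a measured value and not from a label, so what follows describes these oocytes, with no test.

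Each library was 1 wild-type Bos taurus oocyte from an immature cumulus-oocyte complex. Ctrl_IVM oocytes spent 22 h in maturation medium with EGF and FSH before they were stripped of cumulus and checked for a polar body. CNP_IVM oocytes (7 with values) first had 6 h with 200 nM C-type natriuretic peptide in the same medium without EGF and then 22 h of maturation, and GV oocytes (7 with values) are immature oocytes with an intact nucleus (germinal vesicle). No label ties an oocyte to an animal or a dish, so oocytes may share an animal, and each group counts as 1 sample. Animal ages and culture dates are not given in the sources used here. Of 10 labelled Ctrl_IVM oocytes, replicates 2 and 4 were not analysed here.

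A fully grown oocyte stores messenger RNA and makes almost no new RNA once meiosis resumes, so levels in a mature oocyte follow from how stored messages are kept, cleared, or given longer or shorter poly(A) tails. Removal is known to depend on deadenylation, in which BTG4 brings the CCR4-NOT enzymes to maternal messages. ZP3 encodes a protein of the zona pellucida, the coat that binds sperm, and the coat is made while the oocyte grows. The libraries were primed on poly(A), so a level here is a share of polyadenylated RNA, and fewer molecules and a shorter tail cannot be told apart.

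ZP3 stood at 246 CPM in replicate 7, 328 CPM in replicate 6 and 378 CPM in replicate 5 (CPM, counts scaled by the library's total reads). The other 5 had 571 CPM in replicate 10, 587 CPM in replicate 3, 717 CPM in replicate 1, 1079 CPM in replicate 8 and 1249 CPM in replicate 9. The oocytes on either side of the division were thus replicate 5 at 378 CPM and replicate 10 at 571 CPM. The step from 717 to 1079 CPM, among the other 5, was wider in CPM. GV oocytes had 1530.3 to 8420.4 CPM of ZP3, and CNP_IVM oocytes 130.3 to 239 CPM, all below the lowest Ctrl_IVM oocyte.

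STAR, which encodes the protein that brings cholesterol to the inner mitochondrial membrane for steroid synthesis, showed the same division in CPM. The 3 low-ZP3 oocytes had 229, 259 and 175 CPM in replicates 5, 6 and 7. The other 5 had 352, 316, 409, 452 and 337 CPM in replicates 1, 3, 8, 9 and 10. The sides did not overlap, and the log2 difference of means was -0.75, which is under 2-fold. With trimmed-mean (TMM) scaling factors the sides of STAR overlapped and the difference was -0.30. GV oocytes had 547 to 844 CPM and CNP_IVM oocytes 78.6 to 117 CPM, so both low and other Ctrl_IVM oocytes lay between these groups. STAR is also a marker of steroid-producing follicle cells, whose other markers are given further down.

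**Figure D1:**
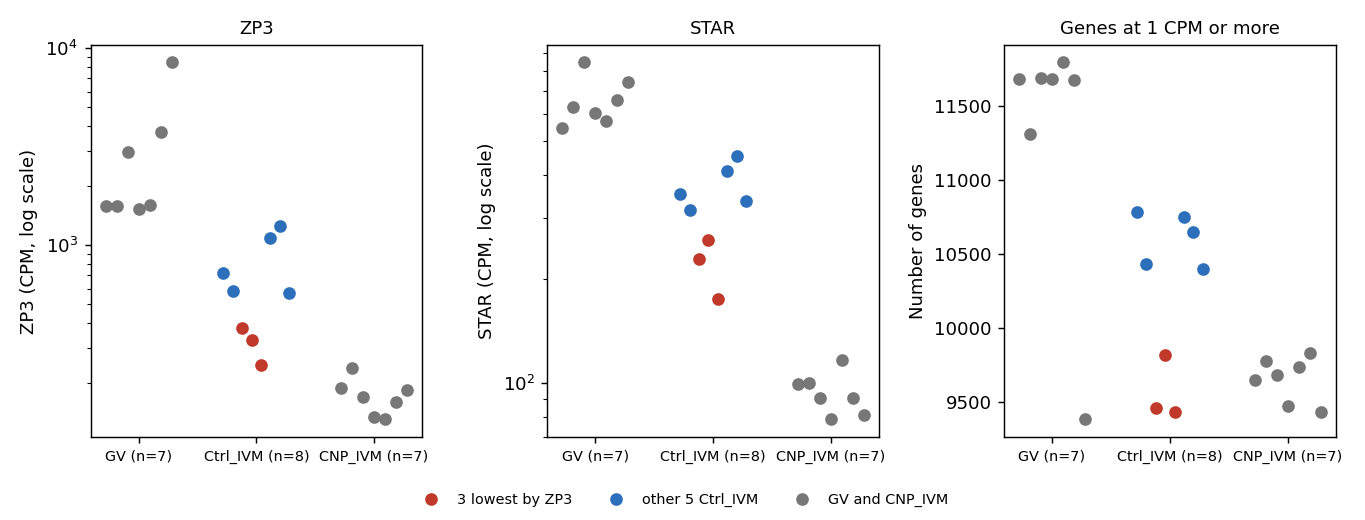
Each point is 1 oocyte; the panels show ZP3 and STAR in CPM on log axes and how many genes reached 1 CPM, for the GV, Ctrl_IVM and CNP_IVM groups. The 3 low-ZP3 Ctrl_IVM oocytes (red) lie below the other 5 (blue) in each panel, for STAR only without TMM factors, and their gene numbers of 9431 to 9817 lie beside the 9429 to 9834 of CNP_IVM oocytes.

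The libraries of the 3 low-ZP3 oocytes were numbered 15, 16 and 17 by the submitters, and the other 5 were numbered 11, 13, 18, 19 and 20. The labels do not say what the numbers mean, so the ZP3 side and anything that neighbouring numbers share cannot be told apart. Library totals were 20159662 reads in replicate 7, 29135792 in replicate 5 and 37030016 in replicate 6, against 29199886 to 39340039 in the other 5. Genes at 1 CPM or more numbered 9431, 9460 and 9817 in the low-ZP3 oocytes and 10400.0 to 10783 in the other 5. The 10 most abundant genes took 11.5 to 12.5% of reads in the 3, against 7.85 to 11% in the other 5. The totals of the sides overlapped, while the gene numbers and the share of the 10 genes moved with the ZP3 division. The part of these measures in the gene differences was not tested.

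Without ZP3 itself, the 3 oocytes still stood together over the 10913 genes that had at least 1 CPM in 3 or more of the 8. A tree built on 1 minus Spearman's rho across these genes parted the 3 from the 5 at its top branch. Pairs among the 3 had rho of 0.947 to 0.961, pairs among the 5 had 0.924 to 0.967, and the 15 pairs between them had 0.855 to 0.948. The range between the sides overlapped that among the 5 and reached that among the 3: replicate 6 was as close to replicate 10 (0.948) as to replicate 5 (0.947). The first principal component took 49.8% of the variance and placed the 3 at 45.1 to 68.1 and the other 5 at -68.8 to -6.44. The other 5 were spread over a wider range than the 3, with replicates 3 and 10 nearest to the low-ZP3 side and replicate 8 farthest from it. Genes could pass the filter through 1 side alone, and such genes help to part the sides. Neither the tree nor the components were computed without them. With 8 oocytes, separate states and a graded series cannot be told apart.

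**Figure D2:**
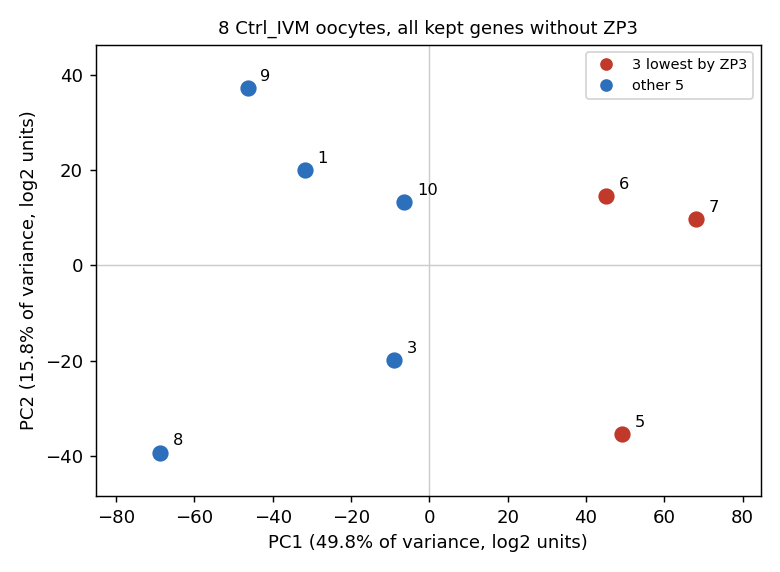
First and second principal components of log2(CPM + 1) over 10913 genes without ZP3; each point is 1 Ctrl_IVM oocyte with its replicate number. The 3 low-ZP3 oocytes (red) have first-component values of 45.1 or more, while the other 5 (blue) run from -68.8 to -6.44.

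The differences were mostly in one direction. A gene was counted as lower when all 3 low-ZP3 oocytes lay below all of the other 5 and the means, each with 1 CPM added, were at least 2-fold apart. By that rule 1687 genes were lower, 15.5% of the 10913, and 32 were higher, 0.293%. Order alone, with no size limit, gave 2315 genes lower (21.2%) and 461 higher (4.22%). Ranking the oocytes by ZP3 picks out whatever varies with ZP3, so these shares are the background for the lists below and support nothing by themselves. The sizes also differed: 345 genes were at least 4-fold lower, and 0 were at least 4-fold higher. In 243 of the 1687 genes none of the 3 reached 1 CPM, so those genes entered only through the other 5 and had to differ.

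The median log2 difference over all 10913 genes was -0.40, which means that the common run of genes took a smaller share of reads in the low-ZP3 oocytes. TMM factors moved that median to 0.00 and gave 923 lower and 412 higher, and quantile normalization moved it to 0.04 and gave 701 lower and 275 higher. Higher genes were thus 1.86% of the counted genes as deposited, 30.9% with TMM factors and 28.2% with quantile normalization. All of the 923 were among the 1687, and all of the 32 were among the 412. The count of higher genes also moved with single oocytes: it was 119 without replicate 5, 52 without replicate 6, 49 without replicate 10 and 60 without replicate 3. It was 27 without replicate 7, with 16 of the 32 still counted, and 22 without replicate 8, with 18 of the 32 still counted.

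**Figure D3:**
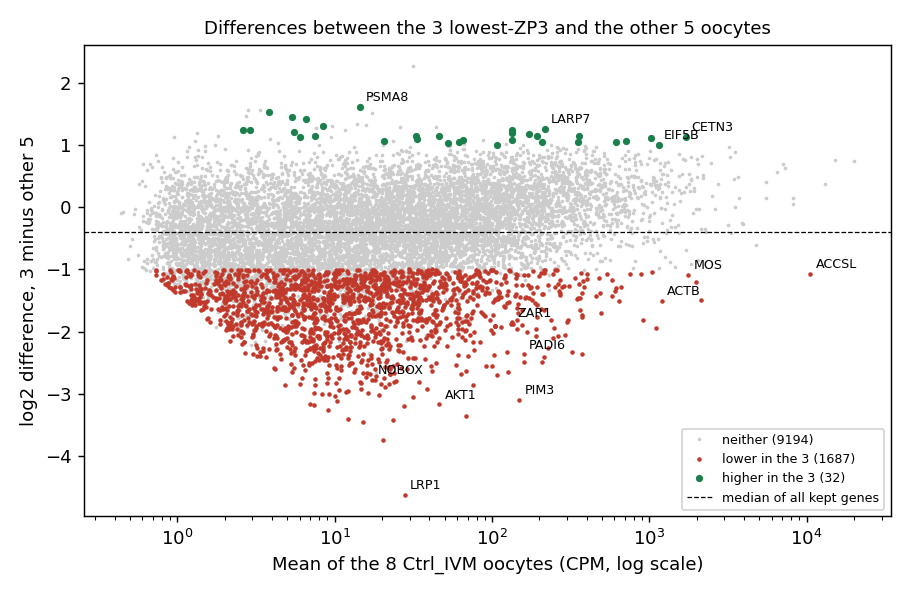
Each point is a gene kept (10913), with its mean over the 8 oocytes in CPM (log axis) and its log2 difference of means, the 3 low-ZP3 oocytes minus the other 5. The 1687 genes lower in the 3 (red) reach -4.62, the 32 higher (green) reach 1.61, and the dashed line is the median of -0.40.

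The largest lower difference was in LRP1, a large endocytic receptor. LRP1 had 1.54, 0.378 and 0.595 CPM in replicates 5, 6 and 7, against 17.5, 30.5, 103, 51.5 and 18.1 CPM in replicates 1, 3, 8, 9 and 10, a log2 difference of -4.62. All 3 low values were below 2 CPM and replicate 8 was the highest. Signalling genes were among the 15 with the lowest differences. AKT1, the kinase downstream of phosphoinositide signalling, had 7.10, 7.70 and 5.95 CPM in replicates 5, 6 and 7, against 46.9, 54.7, 132, 69.1 and 46.3 CPM in replicates 1, 3, 8, 9 and 10 (log2 difference -3.16). DVL3, a Wnt pathway adaptor, had 2.06 to 2.88 CPM against 19.8 to 78.6 CPM (-3.41). PIM3, a serine/threonine kinase, had 24, 35.5 and 16.1 CPM against 149, 165, 469, 134 and 194 CPM in the same order (-3.09).

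Transcription regulators were in the same set. UNCX, a homeobox factor, had 5.75 to 15.2 CPM in the 3 against 62.2 to 205 CPM in the other 5 (log2 difference -3.35). BCL3, a nuclear partner of NF-kappa-B, had 1.99 to 2.43 CPM against 21.6 to 32.3 CPM (-2.99), with little spread on either side. TAF6, a subunit of the general factor TFIID, had 0.397 to 2.44 CPM against 12.3 to 34.4 CPM (-2.96), and ZNF76, a zinc finger factor, had 0.744 to 8.10 CPM against 17.8 to 100.4 CPM (-3.05). Protein turnover and membrane genes were there too: the deubiquitinase USP19 had 0.942 to 5.13 CPM against 20.3 to 99.1 CPM (-3.20), and FKBP8, an anti-apoptotic protein of the mitochondrial surface, had 0.137 to 1.76 CPM against 11 to 38.7 CPM (-3.40). The other 5 of the 15 (BTBD2, TRABD, CLSTN1, KLHL25 and FHIP1B) had log2 differences of -3.74 to -3.02. In 14 of the 15 the highest of the 8 oocytes was replicate 8, and TRABD was the exception. Without replicate 8 the series still gave 1587 lower genes, 1505 of them among the 1687.

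The higher genes had smaller differences than the lower ones, and 23 of the 32 were left with a filter of 10 CPM in 3 of the 8. Those named here have a mean of at least 10 CPM by the rule that picked them. LARP7, which protects the 7SK RNA, had 257, 386 and 391 CPM in replicates 5, 6 and 7 against 126, 217, 77.3, 126 and 169.9 CPM in replicates 1, 3, 8, 9 and 10 (log2 difference 1.26). CENPK, a subunit of the inner kinetochore, had 195, 206 and 225 CPM against 95.8, 115, 49.4, 68.9 and 113 CPM (1.23). PSMA8, the proteasome subunit of meiotic cells, had the largest difference of the named genes, with 34.2, 26.6 and 17 CPM against 3.05, 10.7, 3.56, 9.26 and 12.5 CPM (1.61). SYCP1, of the synaptonemal complex that joins homologous chromosomes earlier in meiosis, had 51.3 to 82.8 CPM against 27.3 to 37.6 CPM (1.14).

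Centrins, calcium-binding proteins of centrioles and of other complexes, appeared together among the 15 with the highest differences. CETN2 had 1508, 1506 and 1648 CPM in replicates 5, 6 and 7 against 679.7, 831, 585, 553 and 941 CPM in replicates 1, 3, 8, 9 and 10 (1.11). CETN3 had 2079.9, 2799 and 2847 CPM against 1197, 1389, 722, 909 and 1659 CPM in the same order (1.13, and just under 2-fold without replicate 8). CETN4 had 35.3 to 59.2 CPM against 11.6 to 33.8 CPM (1.09) and was under 2-fold without replicate 6, 7 or 8. Of the rest, ENY2, of the SAGA and TREX-2 complexes, had 998 to 1097 CPM against 364 to 652 CPM (1.07, and 0.97 both without replicate 8 and with quantile normalization). NEMF, of ribosome quality control, had 391.9 to 725 CPM against 151 to 301 CPM (1.14), under 2-fold without replicate 7. CIR1, RPAP3, MPHOSPH6, CLHC1, RABGGTB and NSRP1 make up the 15, at log2 1.05 to 1.20. Of these, MPHOSPH6, CLHC1, RABGGTB and NSRP1 were under 2-fold without at least 1 single oocyte, and RPAP3 and CIR1 were not.

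**Figure D4:**
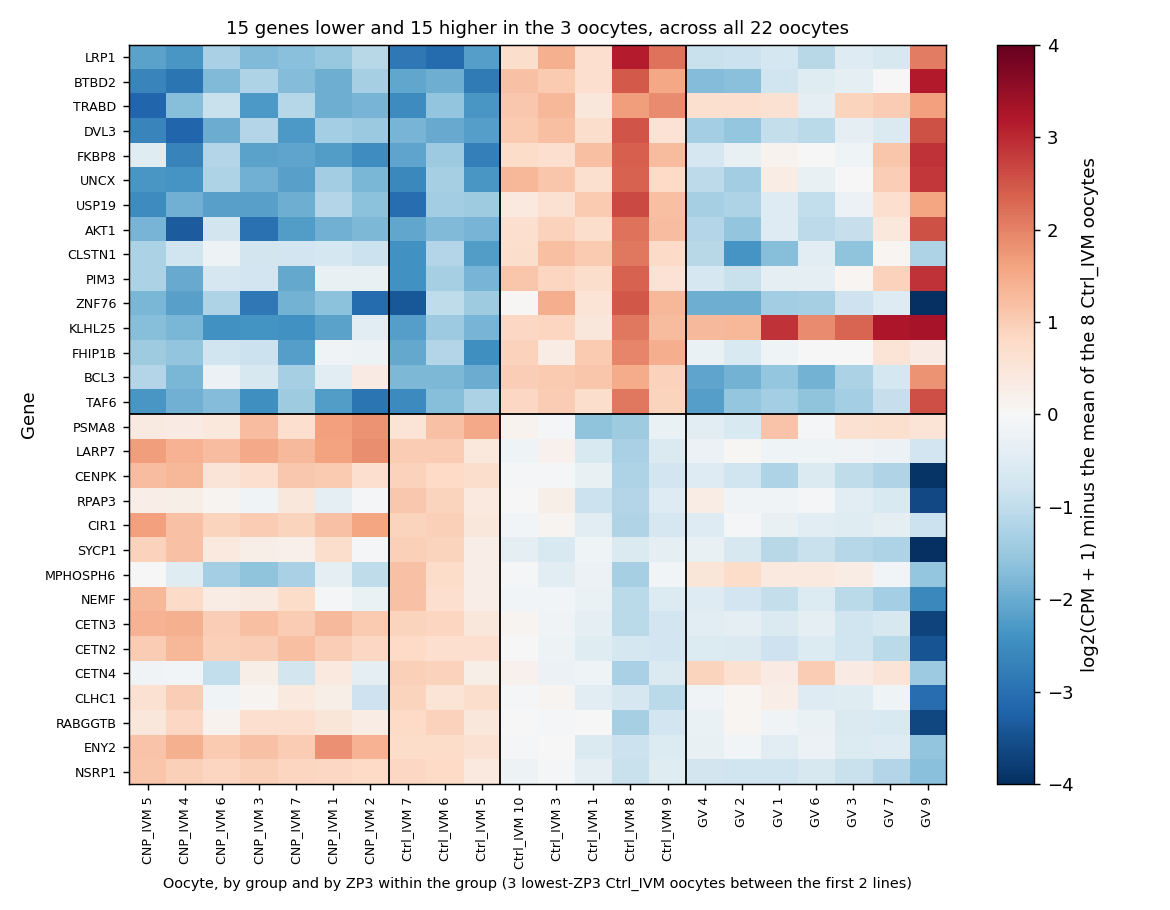
Columns are all 22 oocytes by group, ordered by ZP3 within each group, and rows are the 15 genes with the lowest and the 15 with the highest differences; colour is log2(CPM + 1) minus the mean of the 8 Ctrl_IVM oocytes. For the 15 lower genes the CNP_IVM median lay below the lowest of the other 5 in 15 and the GV median in 13, and for the 15 higher genes they lay above the highest of the other 5 in 12 and 3.

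Genes of the oocyte's own programme were split. Of 18 genes of the subcortical maternal complex and related maternal-effect genes past the filter, 8 were lower (44.4%, beside 15.5% of all genes), 0 were higher and 10 were neither, and their median log2 difference was -0.93 beside -0.40. The 8 were NLRP5, NLRP8, NLRP9, KHDC3L, TLE6, PADI6, TRIM28 and ACCSL. The list counted ACCSL, which is not a part of the complex, and no share was computed without it. This list, like the others, was drawn up with earlier results of these data known. With TMM factors 4 were lower and 1 higher, at a median of -0.48 beside 0.00. PADI6, a protein of the cytoplasmic lattices, had 52.2, 51.8 and 27 CPM in replicates 5, 6 and 7 against 214, 133, 278, 345 and 173 CPM in replicates 1, 3, 8, 9 and 10 (-2.36). NLRP5, the core of the complex, had 27, 15.8 and 15.7 CPM against 73.1, 47.4, 140.5, 71.5 and 39.4 CPM (-1.88). ACCSL, an abundant oocyte transcript, had 5206 to 7759 CPM against 11785 to 15178 CPM (-1.07); it was under 2-fold with TMM factors (-0.63) and without replicate 5 (-0.95). DPPA3, which protects maternal methylation, lay the other way, at 4219 to 4894 CPM in the 3 and 1757 to 3160.1 CPM in the other 5, a log2 difference of 0.80.

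Among zona and egg surface genes, 3 of 7 past the filter were lower (42.9%, beside 15.5% of all genes) and 0 higher. With TMM factors it was 3 and 1, and ZP3 is not among the 7. The 7 had a median log2 difference of -0.12 beside -0.40 for all genes, so as a whole they were not lower than the background. IZUMO1R, the egg receptor for sperm, had 9.40, 26.5 and 15.7 CPM in replicates 5, 6 and 7 against 92.2, 58.2, 64.4, 54.6 and 83.3 CPM in replicates 1, 3, 8, 9 and 10 (-1.97). CD81, a tetraspanin, had 44.7 to 68.9 CPM against 169 to 272 CPM (-1.89), and the third was ASTL, the protease that cleaves ZP2 after fertilization. The other coat genes did not divide as ZP3 did. ZP2 had 5334, 2803 and 4317 CPM in the 3 and 2488 to 3554 CPM in the other 5, and ZP4 had 2634, 1250.4 and 1024 CPM and 1147 to 2184 CPM, so in both the sides overlapped. OOSP2, an abundant secreted oocyte protein, had 4359 to 4749 CPM in the 3 and 1819.9 to 2808 CPM in the other 5, without overlap and just under 2-fold (0.97).

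Among oocyte growth and transcription factors 2 of 14 were lower (14.3%, close to the 15.5% of all genes) and 0 higher. NOBOX, a homeobox factor of follicle growth, had 3.33, 3.59 and 1.98 CPM in replicates 5, 6 and 7 against 27.2, 17.2, 54.3, 20.4 and 11.1 CPM in replicates 1, 3, 8, 9 and 10 (-2.77). YBX2, a binder of stored messages, was the other. The growth factors overlapped: GDF9 had 590.2 to 769 CPM against 511 to 937 CPM, and BMP15 1320.3 to 2953 CPM against 1347 to 3360.3 CPM. FIGLA, the factor that drives zona genes during growth, had 22.4 to 30.03 CPM against 20.3 to 60.4 CPM, also with overlap.

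Messenger RNA storage and decay genes were near the background in share, 11 of 63 lower (17.5%, beside 15.5% of all genes), 0 higher and 52 neither. With TMM factors 6 were lower and 1 higher. Their median log2 difference lay above that of all genes, at -0.17 beside -0.40, and at 0.27 beside 0.00 with TMM factors. ZAR1, a maternal protein of stored messages, had 56.3, 58.5 and 37.4 CPM in replicates 5, 6 and 7 against 195, 129, 261, 214 and 128 CPM in replicates 1, 3, 8, 9 and 10 (-1.85). UPF1, of nonsense-mediated decay, had 3.67 to 5.49 CPM against 13.4 to 49.7 CPM (-2.56), and YTHDF1, a reader of methylated adenosine, 2.40 to 5.94 CPM against 12.3 to 34.5 CPM (-2.17). BTG4 lay the other way, with 28829, 23789 and 27441 CPM against 15230.0, 21009.8, 12510.4, 11543 and 19264 CPM. Its sides did not overlap and differed by 0.75 on the log2 scale as deposited and by 1.16 with TMM factors, but with quantile normalization they overlapped (0.12). CNOT2, of the CCR4-NOT complex, had 338 to 380.0 CPM against 190.1 to 302 CPM (0.57).

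In the meiotic cell cycle list 7 of 49 were lower (14.3%) and 0 higher, and 5 and 3 with TMM factors. PLK1, a kinase of the spindle and of entry into division, had 39.9, 24 and 13.7 CPM in replicates 5, 6 and 7 against 129.6, 71.0, 185, 133 and 77.9 CPM in replicates 1, 3, 8, 9 and 10 (-2.16). CDC25B, the phosphatase that activates CDK1, had 4.67 to 12.6 CPM against 19.3 to 44.1 CPM (-1.60). MOS, the kinase that holds metaphase II through MAP kinase, had 965, 1502 and 631 CPM against 1921, 1842, 2956, 1683 and 2573 CPM (-1.09). MOS was under 2-fold with TMM factors (-0.66), without replicate 7 (-0.83) and without replicate 8 (-0.96). Cyclin B1, CCNB1, overlapped, at 2390.4 to 2859 CPM against 2282 to 2999.6 CPM. Securin, PTTG1, which restrains separase, lay higher at 19533 to 22332 CPM against 8158 to 15741 CPM, a log2 difference of 0.76, which was 0.34 with overlap after quantile normalization.

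Spindle, kinetochore and cohesin genes had 10 of 50 lower (20%, beside 15.5% of all genes) and 0 higher. It was 4 and 5 with TMM factors, and 2 and 1 with quantile normalization. Their median log2 difference was -0.13 beside -0.40 for all genes. The 10 lower were TUBB, TUBB2A, TUBB4B, TUBA1C, TUBG1, TUBGCP2, TUBGCP3, NUMA1, INCENP and CENPA. TUBB4B, a beta-tubulin with close paralogs that may share reads, had 4.70, 5.13 and 6.89 CPM in the 3 against 9.11 to 35.5 CPM (-1.97), and its sides overlapped with quantile normalization (-1.32). INCENP, of the chromosomal passenger complex, had 10.3 to 16.9 CPM against 30.6 to 63.6 CPM (-1.57). CENPE, the kinetochore motor, lay the other way at 621 to 818 CPM against 306 to 552 CPM (0.87), as did SGO2, a protector of centromeric cohesin, at 193 to 202 CPM against 69.3 to 161 CPM (0.84). Among cytoskeletal genes 2 of 36 were lower (5.56%, beside 15.5% of all genes). They were ACTB, beta-actin, at 565, 715 and 395 CPM against 1236, 1682, 2026, 1341 and 1631 CPM (-1.50), and the actin-severing CFL1, at 60.6 to 128 CPM against 210.0 to 388 CPM (-1.81).

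DNA methylation and chromatin enzymes had 14 of 60 lower (23.3%), 0 higher and 46 neither, and a median log2 difference of -0.73 beside -0.40 for all genes. With TMM factors 9 were lower and the median was -0.33 beside 0.00. PRMT6, an arginine methyltransferase, had 2.88, 9.34 and 0.694 CPM in the 3 against 15.3 to 35.7 CPM (-2.05), and EHMT2, a histone H3 methyltransferase, 7.89 to 17 CPM against 40.4 to 57 CPM (-1.78). The others lower were DNMT3A, DNMT3B, UHRF1, TET3, KMT2B, KMT2D, SUV39H1, EHMT1, DOT1L, PRMT5, KAT2A and KAT5. Zinc finger genes named ZNF had 31 of 174 lower (17.8%) and 0 higher, close to the background. DNA repair genes had 5 of 56 lower (8.93%) and 0 higher, and 2 and 5 with TMM factors. XRCC1, a scaffold of single-strand break repair, had 8.45 to 16 CPM against 26.7 to 48.2 CPM (-1.60), while the checkpoint kinase CHEK1 had 306 to 434 CPM against 146 to 249 CPM (0.88).

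**Figure D5:**
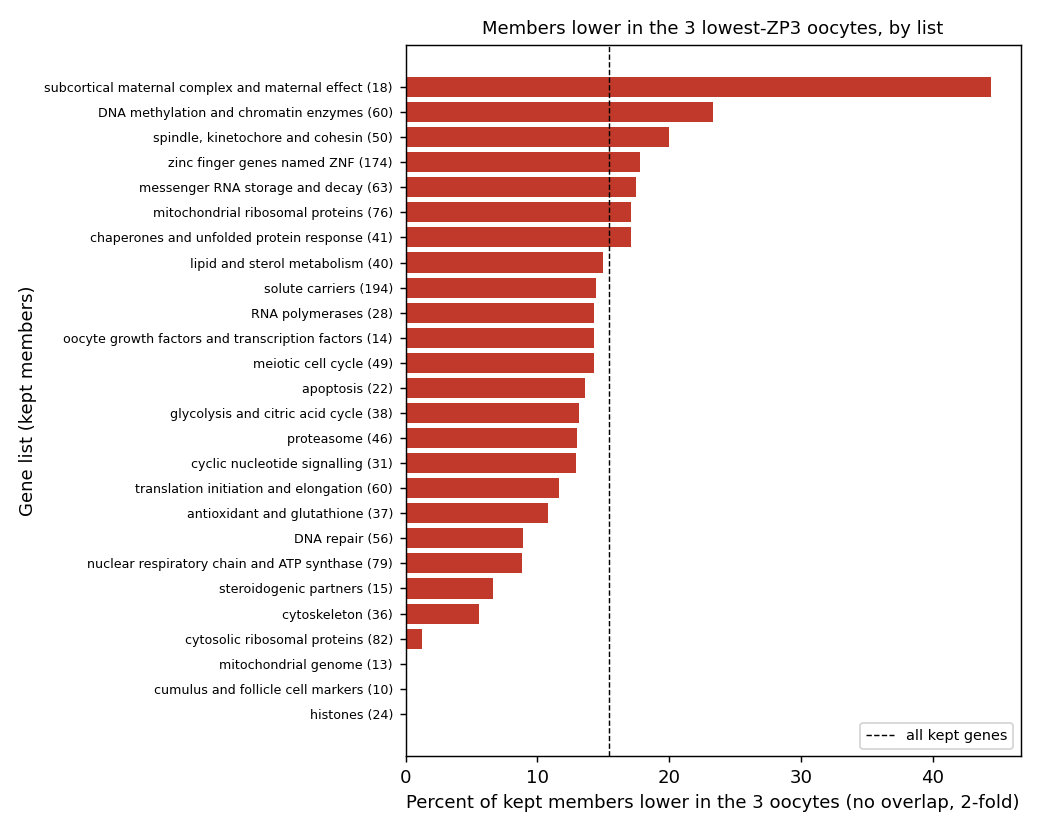
Bars give, for each list of 10 or more kept genes, the percent that were lower in the 3 low-ZP3 oocytes; the number kept is beside each list's name and the dashed line is the 15.5% of all genes. The maternal-effect list, with ACCSL counted, stands at 44.4%, the cytosolic ribosomal list at 1.22%, and 3 lists at 0.

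Cytosolic ribosomal protein genes were seldom lower. Of 82 cytosolic ribosomal protein genes 1 was lower (1.22%, beside 15.5% of all genes), 0 higher and 81 neither. By order alone 6 were lower and 5 higher. Their median log2 difference was -0.05 beside -0.40 for all genes, and 0.41 beside 0.00 with TMM factors. With TMM factors 0 were lower and 4 higher, and with quantile normalization 0 and 2. The member lower was RPL13, at 22.9 to 38.5 CPM against 56.3 to 101 CPM (-1.31, and -0.83 with TMM factors). RPL6 had 70.5 to 88.2 CPM in the 3 against 29.6 to 61.4 CPM (0.83). Ribosomal protein genes have many processed copies whose reads the counting could split, so single values are uncertain. Of 60 genes with EIF and EEF symbols 7 were lower (11.7%) and 1 higher (4 and 8 with TMM factors). The 1 was EIF5B, which joins ribosomal subunits, at 1188, 2116 and 1703 CPM against 791, 908, 524, 769 and 1174 CPM. Its log2 difference of 1.00 was 0.79 to 1.20 as single oocytes were left out, and under 1 without replicate 1, 6, 7, 8 or 9. With quantile normalization its sides overlapped (0.91).

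Mitochondrial ribosomal proteins had 13 of 76 lower (17.1%) and 0 higher, and 3 and 5 with TMM factors. MRPL4 had 2.2 to 3.89 CPM against 9.38 to 22.6 CPM (-2.08), and MRPL33 lay the other way at 244 to 323 CPM against 111 to 198 CPM (0.80). Respiratory chain and ATP synthase genes of the nucleus had 7 of 79 lower (8.86%) and 0 higher, and 3 and 11 with TMM factors. Without a size limit, 11 of the 79 were lower and 8 higher. ATP5F1B, the catalytic beta subunit of ATP synthase, had 57.1, 87.9 and 87.7 CPM in replicates 5, 6 and 7 against 202 to 225 CPM (-1.46), a narrow range in the other 5. Cytochrome c, CYCS, had 157 to 198 CPM against 69.3 to 154 CPM (0.76). None of the 13 genes of the mitochondrial genome divided the oocytes: 0 were lower, 0 higher and 0 without overlap. Their summed level was 2282 to 4456 CPM in the 3 and 2205 to 9414 CPM in the other 5.

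Metabolic and stress lists lay near the background of 15.5% in the share that was lower. Glycolysis and citric acid cycle genes had 5 of 38 lower (13.2%) and 0 higher, among them GPI, of glycolysis (45.3 to 63.8 CPM against 118 to 180.1 CPM, -1.45). The median of that list was -0.63 beside -0.40 for all genes, and -0.21 beside 0.00 with TMM factors. Lipid and sterol genes had 6 of 40 lower (15%) and 0 higher, with the hormone-sensitive lipase LIPE at 0.961 to 4.27 CPM against 11.5 to 34.2 CPM (-2.37) and INSIG1, which restrains sterol synthesis, at 14.2 to 35.9 CPM against 49.7 to 126 CPM (-1.85). Proteasome genes had 6 of 46 lower (13%) and 1, PSMA8, higher, and 4 and 4 with TMM factors. PSMD3, of the regulatory lid, had 15.4 to 16.1 CPM in the 3 against 40.9 to 105 CPM (-1.90). Antioxidant and glutathione genes had 4 of 37 lower (10.8%) and 0 higher. GPX4, which reduces lipid peroxides, had 8.34, 11.2 and 10.8 CPM in the 3 and 18.2, 12.5, 12.4, 30.4 and 12.2 CPM in the other 5, a division without overlap of under 2-fold (-0.71). That division of GPX4 was lost with TMM factors (-0.25) and with quantile normalization (-0.08).

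Chaperone and unfolded protein genes had 7 of 41 lower (17.1%) and 0 higher, with PDIA4, a disulfide isomerase of the endoplasmic reticulum, at 40.2, 40.7 and 41.1 CPM in the 3 against 88.4 to 207 CPM (-1.74). Apoptosis genes had 3 of 22 lower (13.6%, beside 15.5% of all genes) and 0 higher, and 1 and 2 with TMM factors. Solute carriers had 28 of 194 lower (14.4%) and 0 higher. RNA polymerase subunits had 4 of 28 lower (14.3%) and 0 higher (1 and 3 with TMM factors), and histones 0 of 24 lower and 0 higher. The largest RNA polymerase II subunit, POLR2A, had 5.29 to 9.68 CPM against 16.1 to 28.1 CPM (-1.55, and -0.92 with quantile normalization). The oocyte linker histone H1-8 had 1332, 1513 and 728 CPM against 1781 to 2679 CPM (-0.91), and its sides overlapped with TMM factors (-0.49).

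In the cyclic nucleotide list, which covers the pathway CNP acts on, 4 of 31 were lower (12.9%) and 0 higher. GPR3, whose activity in the oocyte sustains cyclic AMP and meiotic arrest, had 4.77, 4.62 and 2.48 CPM in replicates 5, 6 and 7 against 9.04, 17.3, 21.6, 11.1 and 11.1 CPM in replicates 1, 3, 8, 9 and 10 (-1.60). PRKAR1A, a regulatory subunit of protein kinase A, had 245, 303 and 179.8 CPM against 539 to 718 CPM (-1.38). PRKAR1A was under 2-fold with TMM factors (-0.95), and GPR3 with quantile normalization (-0.96).

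Cumulus and follicle cell markers did not divide the sides. Of 18 cumulus and follicle cell markers measured (STAR is not among them) 10 passed the filter, 0 were lower, 0 higher and 0 without overlap. Their summed level was 183 to 212 CPM in the 3, 162 to 262 CPM in the other 5, 166 to 255 CPM in CNP_IVM and 82.3 to 384 CPM in GV oocytes. The 10 (HAS2, VCAN, PTGS2, GJA1, EGFR, PTX3, CD44, CYP19A1, GREM1 and KRT8) were above 0 in all 8 Ctrl_IVM oocytes. VCAN had 29.1 to 57.6 CPM in the 3 against 30.02 to 100.5 CPM. PTGS2 had 12.5 to 54.5 CPM against 28.996 to 49.2 CPM. Of the markers that did not pass, INHBA was above 0 in all 8. FSHR was at 0 in 5 of the 8, FST in 5, INHBB in 4, CYP11A1 and INHA in 3, and TNFAIP6 and NPR2 in 2. HAS2, which carried much of the sum, had 74.6 to 86.5 CPM against 61.1 to 94.8 CPM. Among 15 steroid synthesis genes past the filter, STAR included, 1 was lower (6.67%, beside 15.5% of all genes) and 0 higher. It was POR, which passes electrons to cytochrome P450 enzymes, at 89.8, 98.5 and 69.4 CPM against 174 to 426 CPM (-1.58). HSD3B1 was at or below 0.810 CPM in all 8.

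Among blood and immune markers 1 divided the sides. Of 8 measured, 4 passed the filter and 1 was lower (25%, beside 15.5% of all genes). It was CSF1R, a macrophage receptor, at 3.16, 0.810 and 4.56 CPM in the 3 against 9.03 to 36.9 CPM (-2.18). The summed level was 13.7 to 26.5 CPM in the 3 and 22.1 to 85.1 CPM in the other 5. VWF and CD3E were above 0 in all 8, and in both the sides overlapped. VWF had 8.78 to 20.6 CPM in the 3 and 1.92 to 42.1 CPM in the other 5. CD3E had 0.347 to 4.13 CPM and 2.69 to 5.91 CPM. PECAM1 and HBA were each at 0 in 5 of the 8 oocytes, and CD68 and HBA1 in 4. The part of such cells in the CSF1R difference was not tested.

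The 3 low-ZP3 oocytes lay closer to the CNP_IVM group than the other 5 did. Across the 10913 genes, rho with the CNP_IVM mean was 0.959, 0.954 and 0.950 in replicates 5, 6 and 7, and 0.884 to 0.946 in the other 5. The same measure against the GV mean was 0.733 to 0.740 in the 3 and 0.752 to 0.790 in the other 5. Of the 1687 lower genes, the CNP_IVM median lay at or below the highest of the 3 in 1047 (62.1%) and at or above the lowest of the other 5 in 190 (11.3%). For the same genes the GV median was on the side of the 3 in 294 (17.4%) and of the other 5 in 1129 (66.9%). These genes were picked for low values in the 3, and no such share was computed over all 10913 genes. ZP3, which set the sides, was itself lowest in CNP_IVM and highest in GV oocytes. GV replicate 9, whose title says GV while its treatment label says in vitro maturation, had 9381 genes at 1 CPM or more against 11311 to 11798 in the other GV oocytes. That oocyte was kept in the GV mean and the GV medians used here.

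Single genes show where both groups lay. AKT1 had 1.95 to 16.8 CPM in CNP_IVM oocytes, which spans the 3, and a GV median of 14.7 CPM (8.84 to 170.0), below the other 5. PADI6 had 13 to 31 CPM in CNP_IVM and 148 to 862 CPM in GV oocytes (median 194). ZAR1 had 42.8 to 84.4 CPM in CNP_IVM, overlapping the 3, and 887 to 2062 CPM in GV oocytes (median 995). CETN3 had 3047 to 4105 CPM in CNP_IVM, above all 8, and 116 to 1197 CPM in GV oocytes (median 1017). GV replicate 9 is included in these ranges and medians. LRP1, BCL3 and ACTB had GV medians of 6.15, 3.08 and 326 CPM, below every one of the other 5 Ctrl_IVM oocytes, so for these genes the other 5 lay above the medians of both other groups.

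Oocytes that the ranking did not use allow a further look. CNP_IVM against GV shares no library with the split, and of all 10913 genes 26.3% were lower in CNP_IVM (no overlap, 2-fold) and 11.9% higher. Of the 1687 genes lower in the 3, 770 (45.6%) were lower in CNP_IVM than in GV and 8 (0.474%) were higher, and these 770 were 26.8% of all genes lower in CNP_IVM. Of the 32 higher genes, 17 (53.1%) were higher in CNP_IVM than in GV, or 1.31% of all that were, and 2 were lower. Within the 7 CNP_IVM oocytes, the median Spearman's rho with ZP3 was 0.29 for the 1687 genes, -0.12 for the 32, and 0.04 for all genes. Within the 7 GV oocytes it was 0.64 and -0.66 beside 0.04, and without replicate 9 it was 0.66 and -0.54 beside 0.20. These correlations are over 7 or 6 oocytes and are descriptions without a test. Depth and library composition differed between those oocytes, and ZP3 and the other genes were read from the same libraries. The part of such differences in the correlations was not tested. The 1687 still hold the 243 genes in which none of the 3 reached 1 CPM. Neither the shares nor the correlations were computed without those genes. The shares against GV include GV replicate 9 and were not computed without that oocyte.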

How the data were processed

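The authors deposited 1 table named for TPM whose values are CPM: within each library every value is a multiple of 1 step, the same for all genes. With a tolerance of 0.01 reads, 99.99% of values gave whole reads. Per the submitters' processing notes, the tools were edgeR, featureCounts 2.0.1, HISAT2 2.2.1, FastQC and Trim Galore 0.6.7, with no role given, and the build named is GRCm39, a mouse build. The gene names are cattle symbols, and 13356 of 13502 are in RefSeq for ARS-UCD2.0. Reads were counted without molecular identifiers, so depth covers counting only. Columns were matched by the name in each sample's description, and 0 were left over.

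Ctrl_IVM oocytes were ranked by ZP3, and genes other than ZP3 with at least 1 CPM in 3 of the 8 were kept. The log2 difference is that of means with a pseudocount of 1 CPM. No count test was run on the recovered reads, since the sides were chosen on a measured value and each group is 1 sample. Members, lists and rules were chosen with earlier results of these data known. Named genes are, among those with a symbol, a mean of at least 10 CPM and no overlap, the 15 lowest, the 15 highest and up to 4 per list, together with ZP3, STAR and some oocyte genes whatever their values. Genes given without values complete a list's count. Some genes that the rule names are not reported here. The planned look at protein length and promoters was not made. Python 3.11.15, NumPy 2.4.6, pandas 2.3.3 and SciPy 1.17.1 were used. Only the rule that counts genes as lower or higher was run on simulated reads, which had no differences in library composition. The tree, components, lists and correlations were not run on simulated reads. Alternatives were other filters, scalings, pseudocounts and size limits, thinning to the smallest library (added after seeing the data), and leaving out each oocyte.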

Additional observations from a re-analysis of the deposited data

Results flagged for a closer look

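In 12 of the named genes replicate 8 stood above the other 7 Ctrl_IVM oocytes by a gap that is wide against the group's range by Dixon's criterion. Its values were 78.6 CPM for DVL3, 38.7 CPM for FKBP8, 205 CPM for UNCX, 99.1 CPM for USP19, 469 CPM for PIM3 and 34.4 CPM for TAF6. They were 140.5 CPM for NLRP5, 105 CPM for PSMD3, 68.7 CPM for KEAP1, 36.9 CPM for CSF1R, 34.2 CPM for LIPE and 96.1 CPM for SLC52A2. Replicate 8 was the highest of the 8 oocytes in 1018 (60.3%) of the 1687 lower genes. Replicate 9 stood apart in GPX4, at 30.4 CPM. Among GV oocytes, replicate 9 stood apart in ZP3, at 8420.4 CPM, and in genes at 1 CPM or more, at 9381. In all 15 of 141 groups of values were marked in this way. The usual rate of about 1 in 20 by chance is no yardstick here. Many of the groups are genes picked for their differences, and they share the same oocytes.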

How the results depend on the processing

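The 1687 lower genes became 923 with TMM factors, 701 with quantile normalization, 923 with a pseudocount of 5 CPM and 1033 with a filter of 10 CPM. They were 1587 to 2191 as single oocytes were left out. The 32 higher genes became 412 with TMM factors, 275 with quantile normalization, 17 with the pseudocount of 5 CPM and 461 with no size limit, and were 22 to 119 as single oocytes were left out. The cause was not tested, except that a larger pseudocount, a higher filter and no size limit change the counts by construction. Libraries thinned to the smallest total gave 1653 and 30. No named gene past 2-fold changed direction under the alternatives run. No paired analysis was possible because the split lies within 1 group, replicate numbers only name oocytes, and no test was run. With 3 and 5 oocytes, no spread between animals could be measured.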
